A study of Mus musculus with 6 samples.

Results

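Cytosolic ribosomal proteins form the large and the small subunit of the ribosome around the ribosomal RNAs, and most are encoded by a single gene that is active in every cell. Some have a paralogue, a related gene copy such as Rps27l for Rps27 or Rpl22l1 for Rpl22, which can be used in certain tissues or states. The genes were taken by symbol, as Rpl or Rps followed by a number or Rplp, without the Rps6k kinases, named pseudogenes and proteins of mitochondria. This gave 87 of 20659 genes with a probe, and 174 of 39429 probes. They are 76 canonical genes (46 of the large and 30 of the small subunit), 9 paralogues, and 2 genes that carry such a symbol without being ribosomal proteins, Rps19bp1 and Rps23rg1.

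The cells came from adult mouse liver, were sorted for CD63, a tetraspanin of endosomes and the cell surface, and were then cultured. Of 6 one-colour Agilent arrays, 3 were of cells out of livers damaged by DDC, a porphyrin-inducing chemical used in mice to injure bile ducts, and 3 were of cells out of undamaged livers. The shared medium held serum, insulin-transferrin-selenium, dexamethasone, nicotinamide, EGF, HGF, mercaptoethanol and antibiotics. The protocol adds VEGF and bFGF for cultures named P6, P7 and P9. No sample title uses these names, but the file names of 2 no-injury arrays carry numbers from this set. The addition may thus lie within the no-injury group, and its part and that of the injury in every difference given here cannot be told apart. The labels give no strain or sex, and the submitters describe the samples as 6 cell lines.

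No-injury arrays 1 and 3 differed by no more than repeated spots of the same probe did within an array (chi-square test over 205 repeated probes, p = 0.51), whereas each differed from no-injury array 2 beyond this noise. Arrays 1 and 3 were averaged and counted as 1 sample, which left 3 DDC injury and 2 no-injury samples. Between 65.0% and 74.8% of an array's spots were well above background, and none was saturated. The groups were scanned separately, so scan and group cannot be told apart. Cd63 differed by -0.11 (log2, adjusted p = 0.660 by limma). Of 10 markers of cholangiocytes and progenitors, 9 were well above background on all 6 arrays. So were 5 of 10 markers of hepatocytes and 6 of 9 of macrophages and leukocytes. For mesenchyme this held for 4 of 10, for endothelium for 3 of 8 and for mesothelium for 1 of 5. Of all 20659 genes with a probe, 13352 were tested when this filter was applied. These counts do not by themselves name the cells.

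Each processed signal was divided by the 75th percentile of its array and put on a log2 scale. A positive difference means a higher value in DDC injury, and differences are given with the standard error (SE) of limma's fit, and a gene passed at a Benjamini-Hochberg adjusted p under 0.05 over all 15622 genes tested. Nothing says that the samples of a group came from separate animals, so p-values measure only the spread between these samples, which may be technical.

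The messenger RNAs of ribosomal proteins are known for starting with a run of pyrimidines, the terminal oligopyrimidine tract, through which growth signals set how strongly they are translated. Their promoters often hold sites for ETS factors. The 100 bases before and 15 bases after the annotated start (RefSeq, GRCm38.p6) are shown for the canonical gene with the smallest adjusted p (Rpl18), the canonical gene with the most negative difference (Rps21), the partner genes Rps4x and Rps27, and 3 paralogues that the results turn on. Capitals mark runs of at least 6 C or T within 20 bases of the start, CCGGAAG (an ETS core) and TATAAA (the TATA box), these motifs on either strand.

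Rpl18, chr7:45717971-45718085, plus strand: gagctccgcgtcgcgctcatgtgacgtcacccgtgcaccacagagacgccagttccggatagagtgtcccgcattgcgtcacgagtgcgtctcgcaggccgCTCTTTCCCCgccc
Rps21, chr2:180257279-180257393, plus strand: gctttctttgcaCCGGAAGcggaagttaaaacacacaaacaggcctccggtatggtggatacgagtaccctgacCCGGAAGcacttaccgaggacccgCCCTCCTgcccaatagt
Rps4x, chrX:102189377-102189491, minus strand: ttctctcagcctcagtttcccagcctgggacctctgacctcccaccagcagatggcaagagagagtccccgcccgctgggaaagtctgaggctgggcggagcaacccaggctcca
Rps27, chr3:90213634-90213748, minus strand: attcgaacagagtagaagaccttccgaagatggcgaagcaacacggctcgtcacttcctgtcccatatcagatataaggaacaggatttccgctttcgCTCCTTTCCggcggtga
Rps27l, chr9:66945986-66946100, plus strand: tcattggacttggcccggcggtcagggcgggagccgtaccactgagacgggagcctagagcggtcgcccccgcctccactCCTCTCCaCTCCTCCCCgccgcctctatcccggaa
Rpl22l1, chr3:28805408-28805522, plus strand: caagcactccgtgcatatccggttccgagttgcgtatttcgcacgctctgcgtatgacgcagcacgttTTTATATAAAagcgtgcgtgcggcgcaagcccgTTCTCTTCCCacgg
Rpl7l1, chr17:46782642-46782756, minus strand: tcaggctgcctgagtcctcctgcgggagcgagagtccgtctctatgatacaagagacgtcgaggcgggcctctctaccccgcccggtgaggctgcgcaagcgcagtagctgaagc

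Rpl18, Rps21, Rps27, Rps27l and Rpl22l1 had a pyrimidine run beside the start shown, and the windows of Rps4x and Rpl7l1 had none. Rps21 and Rps27l have 2 annotated starts, and the upstream one is shown. Rpl22l1 carried overlapping TATAAA matches on opposite strands. Of the 56 canonical genes with a window, 71.4% had such a run, compared with 41.2% of all 27025 genes with a window. In the full windows, from 250 bases before to 50 after the start, CCGGAAG was found on either strand in 41.1% of the canonical genes and in 9.9% of all genes. CACGTG, the E-box that Myc binds, was found in 10.7% and 8.1%, and TATAAA in 10.7% and 15.7%. Of the 8 paralogues with a window, 4 had a run and 2 held CCGGAAG, Rps27l and Rpl39l. Among canonical genes, the run was present in 6 of the 10 with a window that rose and in 32 of the 44 that did not pass, and CCGGAAG in 6 of 10 and 16 of 44. These are matches of letters, and their relation to the differences was not tested.

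In DDC-injury cells, canonical ribosomal protein genes were on balance slightly higher, and none was called lower (limma, with 2 lower at an unadjusted p under 0.05). Of 76, 74 were tested, and 16 rose (21.6%), against 17.7% of all genes called higher and 15.8% called lower. Their share of genes called higher was thus near the background. Their share called lower was not, as none was, against 15.8% of all genes. Their median difference was 0.30, beside -0.07 over all genes, with an interquartile range from 0.17 to 0.47. The difference was above 0 in 65 of 74, compared with 46.2% of all genes. Rps24 and Rps25 were not tested because their spots were marked as outliers on DDC injury arrays 2 and 3, and with these spots kept they differed by 0.09 and 0.28 (adjusted p = 0.542 and 0.378 by limma).

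The size of this shift depended on the scaling. With quantile normalization, which gives every array the same distribution, the canonical median was 0.08 beside -0.05 over all genes, and 6 genes rose while 3 fell, Rpl4 and Rps21 among them (background 17.2% higher and 16.3% lower). The authors' own normalized values gave a median of 0.08 beside -0.02, with 7 genes higher and 1 lower, Rpl4 (background 17.8% and 17.4%). When each array's median was used for scaling, the median of all genes moved to 0.18 and that of the canonical genes to 0.54. The canonical genes lay above the median of all genes by 0.37 with either scaling constant. A constant per array moves all genes with a value on every array alike, so this sameness holds by construction. With quantile normalization, which is not a constant, the gap was 0.12.

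The number of calls also moved with the arrays used. On the second scan day alone, which leaves out DDC injury array 1, 30 of 73 canonical genes rose and 1 fell, Rps21 (background 18.2% higher and 18.3% lower). With the 6 arrays counted separately 33 of 74 rose and 2 fell, Rpl4 and Rps21 (background 24.6% and 23.2%). Without no-injury array 2 the no-injury group is 1 sample, which is assumed to vary like the DDC injury arrays. No canonical gene passed by limma in this fit, and 8 were higher and 0 lower at an unadjusted p under 0.05, where 14.3% of all genes were higher and 11.8% lower. The canonical median stayed at 0.29. Without DDC injury array 3, 1 rose. In that fit 19 were higher and 2 lower at an unadjusted p under 0.05 (limma), beside 20.5% and 19.9% of all genes. By the mean of a gene's probes 21 of 76 rose (background 17.7% and 15.5%), and after normexp background correction 16 of 74 (17.5% and 13.7%), or 9 with 1 lower when followed by quantile normalization (18.7% and 18.5%).

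Array by array, the 73 canonical genes with a value on all 6 arrays shifted together. Their median deviation from each gene's own mean was -0.03 on DDC injury array 1, 0.22 on array 2 and 0.25 on array 3, and -0.13, -0.15 and -0.14 on no-injury arrays 1 to 3. DDC injury array 1, the one scanned on another day, thus lay between the other DDC injury arrays and the no-injury arrays. With quantile normalization the 3 DDC injury medians were 0.04, 0.02 and 0.07 and the no-injury medians -0.02, -0.05 and -0.01. Between DDC injury arrays 2 and 3 the canonical genes differed with an SD of 0.09, against 0.59 for all genes. Between arrays 1 and 2 the SD was 0.19, against 1.07. The canonical genes were bright, with a median level at percentile 99.08 to 99.32 of an array, while all genes include dim ones. Whether other genes as bright differ as little, or shift in the same way, was not tested.

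**Figure D1:**
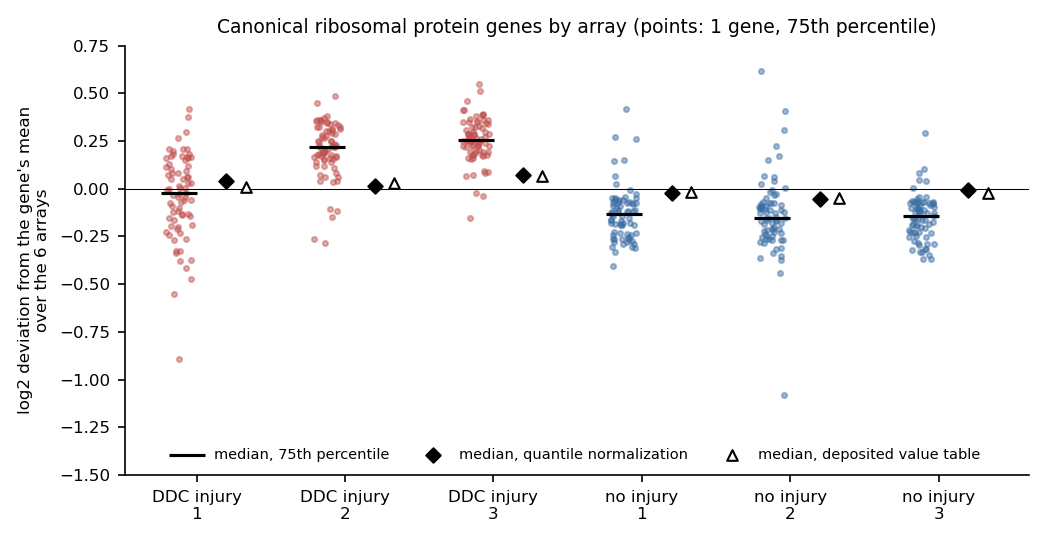
Log2 deviation of each canonical ribosomal protein gene from its mean over the 6 arrays (points, 75th percentile scaling; vertical axis) for each array (horizontal axis), with the median under 3 scalings. Under the 75th percentile, DDC injury arrays 2 and 3 have medians of 0.22 and 0.25 and the no-injury arrays lie between -0.15 and -0.13, while the medians under the other scalings lie close to 0.

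The counts of both subunits were alike. Of 46 tested large subunit genes 10 rose (21.7%), with a median of 0.29, and of 28 tested small subunit genes 6 rose (21.4%), with a median of 0.32. On all 3 DDC injury arrays, 46 canonical genes lay above all 3 no-injury arrays and 3 lay below, where the arrays of 31.6% and 31.5% of all genes were separated in these directions. No canonical gene that passed differed by 2-fold or more, while 8.6% of all genes did so in each direction.

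Rpl18, a large subunit protein, had the smallest adjusted p. Its processed signal was 53720, 35980 and 42420 on the DDC injury arrays and 32250, 33470 and 32440 on the no-injury arrays, in units of intensity, which became 4.56, 4.64 and 4.75 against 3.97, 3.93 and 3.93 on the scaled log2 axis. All DDC injury arrays were above all no-injury arrays on both scales. The difference was 0.72 (SE 0.11, adjusted p = 0.0122 by limma), and it also passed with quantile normalization (0.53, adjusted p = 0.0200) and in the authors' values (0.45, adjusted p = 0.0287).

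Rpl3, which lies near the peptidyl transferase centre, was at 5.21, 5.39 and 5.40 in DDC injury and at 4.74, 4.77 and 4.75 in no injury. Rpl11, one of the proteins that can bind Mdm2 when ribosome assembly is disturbed, was at 5.11, 5.24 and 5.29 against 4.62, 4.61 and 4.69. Neither gene's groups overlapped, and both differed by 0.58 (adjusted p = 0.0225 and 0.0202 by limma). With quantile normalization Rpl3 passed (0.35, adjusted p = 0.0455) and Rpl11 did not (0.35, adjusted p = 0.0586). The other large subunit genes that rose were Rpl19, Rpl27a, Rplp1 of the stalk, Rpl29, Rpl17, Rpl30 and Rpl14, with differences from 0.51 to 0.61. Rpl17 had 7 tested probes with differences from -0.92 to 0.80, and by the mean of its probes it differed by -0.01.

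Among small subunit genes, Rps3a1 was at 4.76, 5.07 and 5.04 in DDC injury and at 4.35, 4.27 and 4.25 in no injury, a difference of 0.67 (SE 0.14, adjusted p = 0.0282 by limma). The groups did not overlap, but by the mean of its 2 probes the difference was 0.37 (adjusted p = 0.173). Rps3, at the messenger RNA entry channel, was at 0.83, 0.97 and 0.86 against 0.41, 0.29 and 0.43. It rose by 0.53 (adjusted p = 0.0266 by limma), and it passed with quantile normalization (0.47, adjusted p = 0.0316) and in the authors' values (0.53, adjusted p = 0.0183). The processed signal of Rps3, from 2701 to 4027, was the lowest among the canonical genes. Its other probe was marked as an outlier on all 6 arrays. Rps2, Rps7 and Rps4x rose by 0.54, 0.42 and 0.42.

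Rps19, the gene most often mutated in Diamond-Blackfan anaemia, had the largest positive difference without passing. It was at 3.94, 4.01 and 4.03 in DDC injury and at 3.34, 2.44 and 3.36 in no injury. The groups were separated, but no-injury array 2 stood apart from the other no-injury arrays. The difference was 1.098 (SE 0.30, adjusted p = 0.0530 by limma). Rpl37 followed with 0.64 (adjusted p = 0.0639).

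Rps21, a small subunit protein, had the most negative difference. It was at 2.12, 2.73 and 2.86 in DDC injury and at 3.43, 3.62 and 3.30 in no injury, and all DDC injury arrays were below all no-injury arrays. The difference was -0.93 (SE 0.27, adjusted p = 0.0639 by limma), it passed with quantile normalization (-1.06, adjusted p = 0.0395), and it did not in the authors' values (-0.82, adjusted p = 0.0991). Rpl4 was at 3.71, 3.68 and 3.93 against 4.21, 4.17 and 3.99, with no overlap. It differed by -0.37 (adjusted p = 0.0888 by limma) and passed with quantile normalization (-0.53, adjusted p = 0.0386) and in the authors' values (-0.44, adjusted p = 0.0451). Rpl5 and Rpl7a differed by -0.34 and -0.27 and did not pass (adjusted p = 0.216 and 0.440).

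**Figure D2:**
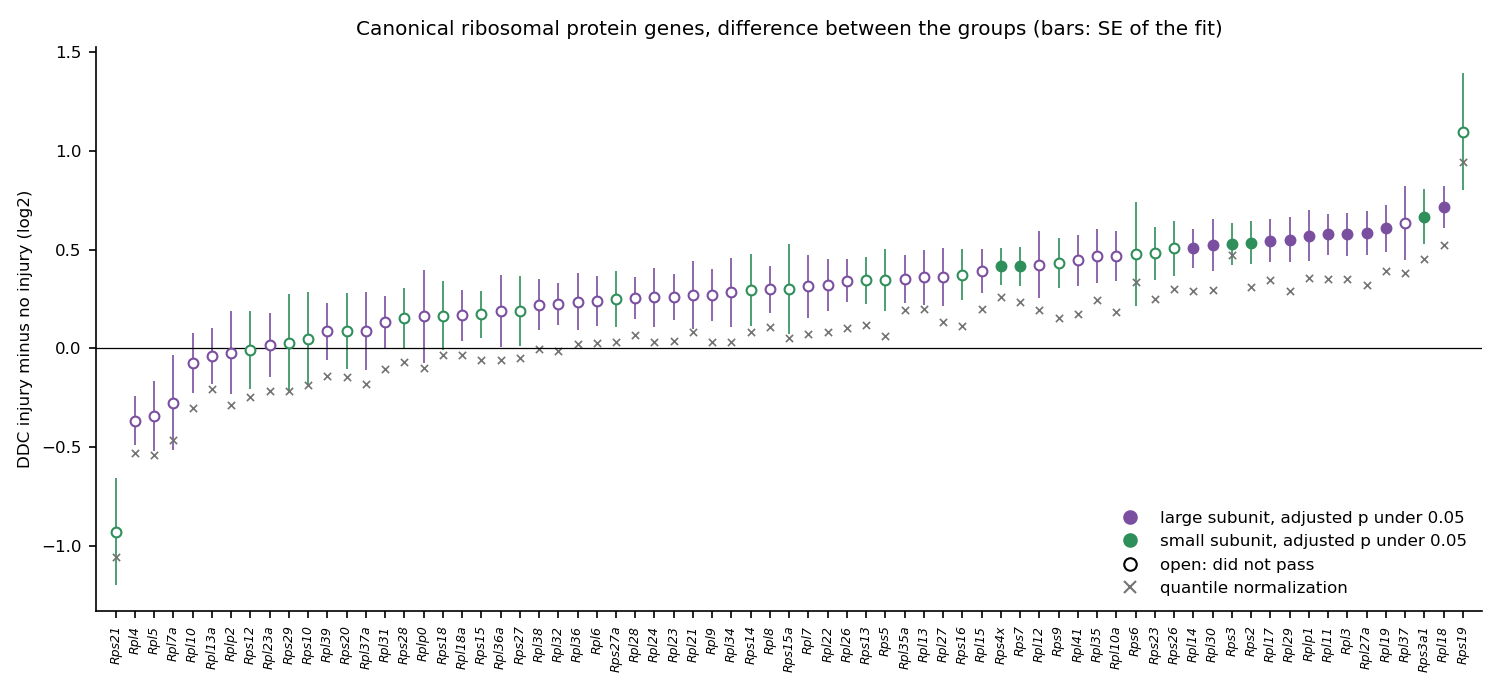
Difference between DDC injury and no injury (log2, vertical axis) for tested canonical genes (horizontal axis), with the SE of the fit as bars. Filled points passed, open points did not, and crosses give quantile normalization. The genes that rose lie between 0.42 and 0.72, and most crosses lie lower than their points.

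Probes of a gene often did not move alike. Of the 162 canonical probes, 154 were tested, and 34 rose (22.1%) and 2 fell (1.30%), where 15.5% of all probes tested were higher and 13.8% lower. In 19 of 47 genes with at least 2 tested probes, the probes lay on both sides of 0. The range within a gene was under 0.5 in 27 genes and at least 1 in 9, and no gene had probes called in both directions. Ribosomal protein genes have many processed pseudogenes of near-identical sequence, and how far such copies or other isoforms add to a probe's signal was not tested.

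The brightest probe of Rpl22, a large subunit protein also known for its role in lymphocytes, lay at 0.32 and did not pass. Its other probe was at 2.01, 1.94 and 1.92 in DDC injury and at 2.90, 2.92 and 2.89 in no injury, with no overlap, and fell by 0.95 on the log2 scale (SE 0.10, adjusted p = 0.00699 by limma over probes). The other canonical probe that fell was 1 of 3 for Rpl13, with a difference of -0.82 (adjusted p = 0.0247, without an outlier spot on DDC injury array 3), while the remaining ones were at 0.36 and 0.29. Rpl13a showed the opposite case: its brightest probe was at -0.04, and its others rose by 1.24 and 1.38.

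**Figure D3:**
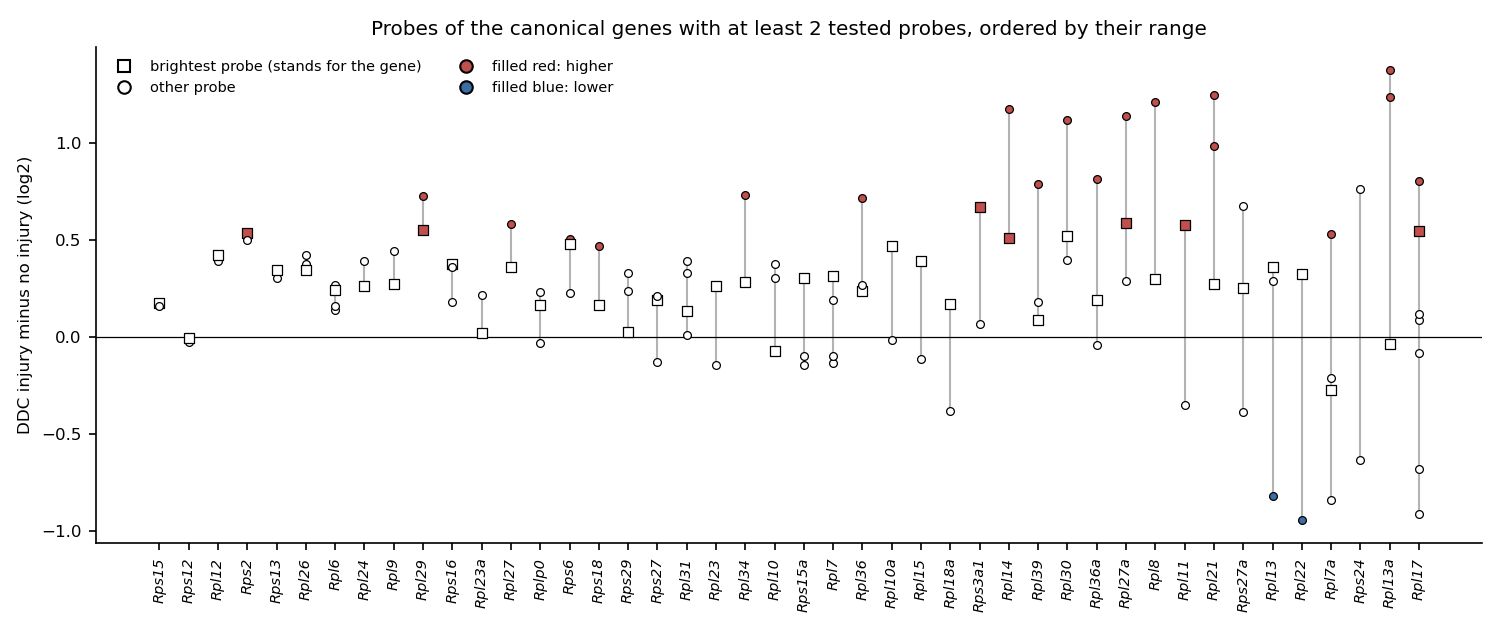
Differences between DDC injury and no injury (log2, vertical axis) of the tested probes of canonical genes with at least 2 tested probes (horizontal axis, ordered by their range). Squares are the brightest probes, red probes rose and blue probes fell. The ranges are wide at the right, up to 1.72 for Rpl17.

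Of the 9 paralogues 5 were tested, and 2 rose and 1 fell, where 17.7% of all genes were called higher and 15.8% lower. Rpl3l, the form of striated muscle, and Rpl39l, a form of male germ cells, did not reach a signal well above background on any of the arrays. Rpl10l, also a testis form, was above background on 2 of 6. Rpl36al was above background on all 6, but its spot was marked as an outlier on DDC injury arrays 1 and 3. With these spots kept it differed by -0.41 (SE 0.20, adjusted p = 0.185 by limma).

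Rps4l, a relative of the X-linked small subunit gene Rps4x, stood far from all other members. RefSeq lists it as a transcribed pseudogene. Its processed signal was 37.5, 16.7 and 15.1 on the DDC injury arrays and 1402, 1495 and 1521 on the no-injury arrays, and the spot was well above background on 6 of 6. On the scaled log2 axis this was -5.92, -6.43 and -6.70 against -0.56, -0.56 and -0.49. The groups were separated by more than 5 log2 units, with a spread of 0.40 (SD, n = 3) and 0.03 (SD, n = 2) within them. The difference was -5.81 (SE 0.26, adjusted p = 0.00105 by limma), a signal 56.1-fold lower in DDC injury. The DDC injury signals were close to the background. Rpl10l, above background on 2 of 6 arrays, was at 9.1, 8.6 and 19.8 on the same arrays. The size of the fold is thus uncertain.

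The drop of Rps4l was seen in each processing tried, with its size depending on the background correction. It was -5.76 with quantile normalization, -3.93 after normexp background correction, and -4.58 in the authors' values (adjusted p = 0.00381, 0.000235 and 0.00034). The authors' log2 values were 6.37, 5.82 and 5.63 on the DDC injury arrays and 10.49, 10.52 and 10.56 on the no-injury arrays. On the second scan day alone the difference was -6.03. When all 3 no-injury arrays were treated as a single sample, which leaves the spread to the DDC injury arrays alone and assumes that the lone sample varies like them, the difference was -5.82 (adjusted p = 0.0294 by limma). In that fit 2.19% of all genes were called higher and 1.32% lower. No canonical gene passed in it, with 6 of 74 higher and 0 lower at an unadjusted p under 0.05, where 13.7% of all genes were higher and 11.9% lower.

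Rps4x, the partner, was at 4.13, 4.09 and 4.17 in DDC injury and at 3.69, 3.73 and 3.70 in no injury. It moved the other way, by 0.42 (SE 0.09, adjusted p = 0.0329 by limma), but did not pass with quantile normalization (0.26, adjusted p = 0.137). The change of Rps4l relative to Rps4x, in which an array's scaling cancels, was -6.23 (exact permutation test, two-sided, n = 3 and 2, p = 0.1, the smallest that this design allows; adjusted over 5 pairs, p = 0.167). Across the 5 samples, the genes whose profile was most like that of Rps4l by Pearson correlation were Pax6, 1810024B03Rik and Ccdc30 (r = 0.99983, 0.99980 and 0.99974), with differences of -5.13, -2.25 and -5.49. With 5 samples in 2 groups, any gene with a difference far above its spread reaches a high correlation here.

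Rpl7l1, a relative of the large subunit gene Rpl7, was the paralogue that rose most. It was at -0.58, -0.56 and -0.55 in DDC injury and at -1.58, -1.43 and -1.48 in no injury. The groups did not overlap and the DDC injury arrays lay within 0.04 of each other. The difference was 0.92 (SE 0.10, adjusted p = 0.00545 by limma), and it held with quantile normalization (0.96, adjusted p = 0.0046) and in the authors' values (0.96, adjusted p = 0.00348). Without no-injury array 2, which leaves 1 no-injury sample, the difference was 0.97 and did not pass (adjusted p = 0.0829). Relative to Rpl7 it changed by 0.60 (exact permutation test, p = 0.1, again the smallest possible).

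Rps27l, a direct target of p53, was at 4.51 and 4.45 on DDC injury arrays 1 and 2, with its spot on array 3 marked as an outlier, and at 4.03, 3.89 and 3.75 in no injury. The arrays did not overlap. It rose by 0.59 (SE 0.11, adjusted p = 0.0357 by limma) over the samples with a value, and by 0.56 with the marked spot kept (adjusted p = 0.0190). This call was lost with quantile normalization (0.44, adjusted p = 0.0939) and in the authors' values (0.27, adjusted p = 0.206). Relative to Rps27 it changed by 0.50 (exact permutation test, n = 2 and 2, p = 0.333, where 0.167 is the smallest possible).

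Rpl22l1, which can take the place of Rpl22, was at 3.98, 4.01 and 4.10 against 3.82, 3.90 and 3.91. Its groups did not overlap, by a narrow margin, and the difference of 0.15 did not pass (adjusted p = 0.313 by limma). Its direction turned with quantile normalization (-0.02). Rpl32l was at 3.99, 4.02 and 4.08 against 4.28, 4.23 and 4.05, overlapping, with a difference of -0.17 (adjusted p = 0.248), which turned with scaling by the array median (0.08). Relative to its partner, Rpl22l1 changed by -0.17 (exact permutation test, p = 0.3) and Rpl32l by -0.39 (p = 0.1). The first of these turned to 0.07 in the authors' values.

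**Figure D4:**
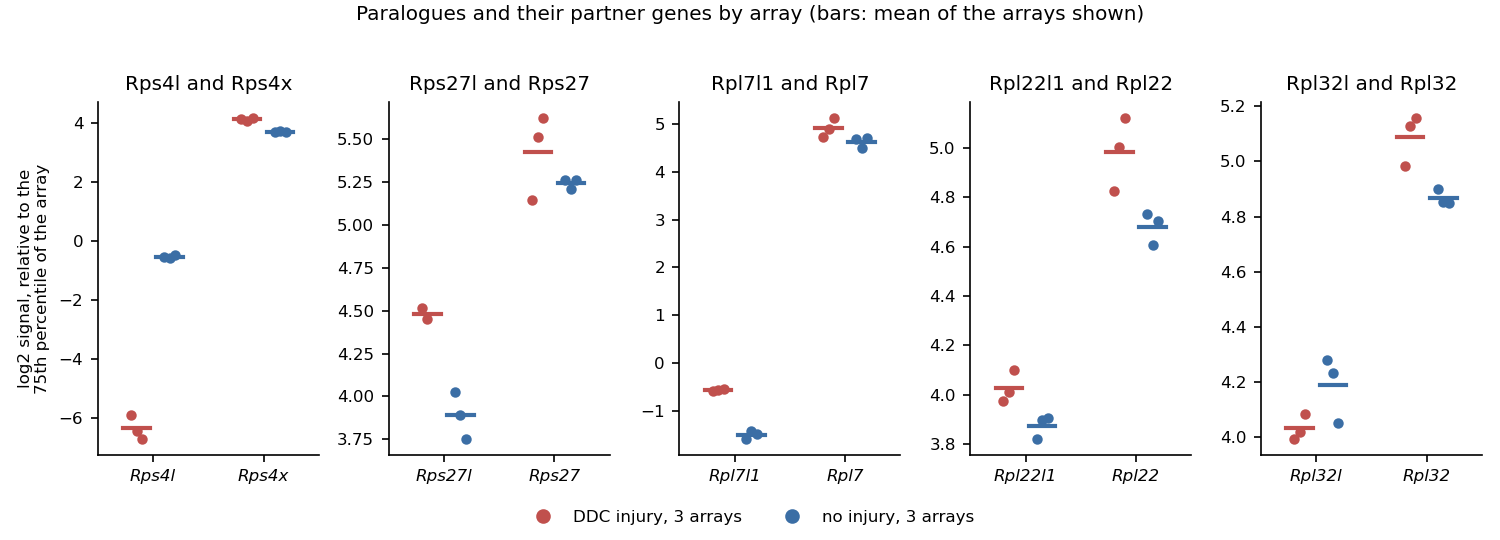
Log2 signal relative to the array's 75th percentile (vertical axis, a separate range for each panel) of 5 paralogues and their partner genes on the 3 DDC injury arrays (red) and the 3 no-injury arrays (blue), with bars at the mean of the arrays shown. Rps4l lies between -6.70 and -5.92 in DDC injury and between -0.56 and -0.49 in no injury, while Rps4x is slightly higher in DDC injury.

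Rps19bp1, whose product binds the ribosomal protein S19 and the deacetylase SIRT1, was at 2.18, 2.27 and 2.11 in DDC injury and at 0.78, 0.72 and 0.80 in no injury. It rose by 1.43 (SE 0.10, adjusted p = 0.0026 by limma), more than any canonical gene, and its groups did not overlap. Rps23rg1, a retrogene of Rps23, differed by -0.41 (adjusted p = 0.661). Its DDC injury arrays, at -4.79, -3.07 and -2.99, enclosed the no-injury arrays, which lay between -3.28 and -3.05.

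Ribosomal proteins that bear other symbols also lay above 0. Rpsa, the laminin receptor and a small subunit protein, rose by 0.76 (adjusted p = 0.0123 by limma), and Rack1 and Fau did not pass, at 0.22 and 0.19. With quantile normalization 2 of the 4 tested lay below 0. Other proteins build ribosomes in the nucleolus. Of 65 tested, 30 rose and 3 fell, with a median of 0.54, where 17.7% of all genes were called higher and 15.8% lower. With quantile normalization 27 rose and 3 fell (17.2% and 16.3% of all genes), with a median of 0.50. Nolc1, a chaperone of small nucleolar ribonucleoproteins, rose by 1.42, Bop1 of the large subunit processing complex by 1.20, Bysl of the small subunit by 1.15, and Dkc1, the pseudouridine synthase, by 1.09. Sbds, which helps to release Eif6 from the large subunit, fell by 0.88, Gnl2 (without its outlier spot on DDC injury array 1) fell by 0.65 and Pes1 fell by 0.57 on the log2 scale.

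Of 14 RNA polymerase I genes tested, which make and regulate the ribosomal RNA precursor, 4 rose and 1 fell, with a median of 0.13. Here and in the next lists, the shares of all genes were 17.7% higher and 15.8% lower. The 4 were the subunits Polr1a, Polr1c and Polr1e (0.57, 0.50 and 0.51) and the factor Ubtf (0.54). Taf1c fell by 1.06. Among 34 initiation factors 15 rose and 1 fell, with a median of 0.45: Eif1ax rose by 1.21, Eif3d by 1.16 and the cap-binding protein Eif4e by 1.11, while Eif5b fell by 1.35. Among 9 genes listed with the elongation factors by their symbols, 4 rose, with a median of 0.49, led by Eef1e1 (1.41) and Eif5a (1.21). Not all of them are elongation factors, so the count and the median describe the list and not elongation factors as such. The median is the value of Eef2k, a kinase gene that did not pass (adjusted p = 0.492 by limma). Eef1a1 and Eef2, whose messenger RNAs also begin with a pyrimidine tract, differed by -0.43 and -0.04 without passing. Of 76 mitochondrial ribosomal proteins 29 rose and 1 fell, with a median of 0.38, led by Mrps28 (1.50) and Mrpl13 (1.30).

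Of 21 growth regulators 3 rose and 4 fell, with a median of 0.04. These counts were near the shares of all genes (17.7% and 15.8%). Larp1, which binds pyrimidine tracts, rose by 1.11, Larp4 by 1.01 and the S6 kinase gene Rps6kb1 by 0.62. Mtor fell by 1.28, Tsc2 by 0.83, Mxd4, a Myc antagonist, by 0.78, and the translation inhibitor Pdcd4 by 2.44. Myc differed by 0.19 (adjusted p = 0.646 by limma). Of 25 p53 target genes, the group to which Rps27l belongs, 9 rose and 3 fell, with a median of 0.28 (17.7% and 15.8% of all genes). Cdkn1a rose by 1.09, Aen by 1.06, Phlda3 by 1.03, Ddit4 by 0.92 and Mdm2 by 0.47, and Xpc, Sesn1 and Plk2 fell by 1.18, 0.91 and 0.46. With all 3 no-injury arrays as a single sample, so that only the DDC injury arrays gave the spread, no gene of these lists passed by limma. At an unadjusted p under 0.05, 64 of 248 were higher and 9 lower, where 13.7% of all genes were higher and 11.9% lower.

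**Figure D5:**
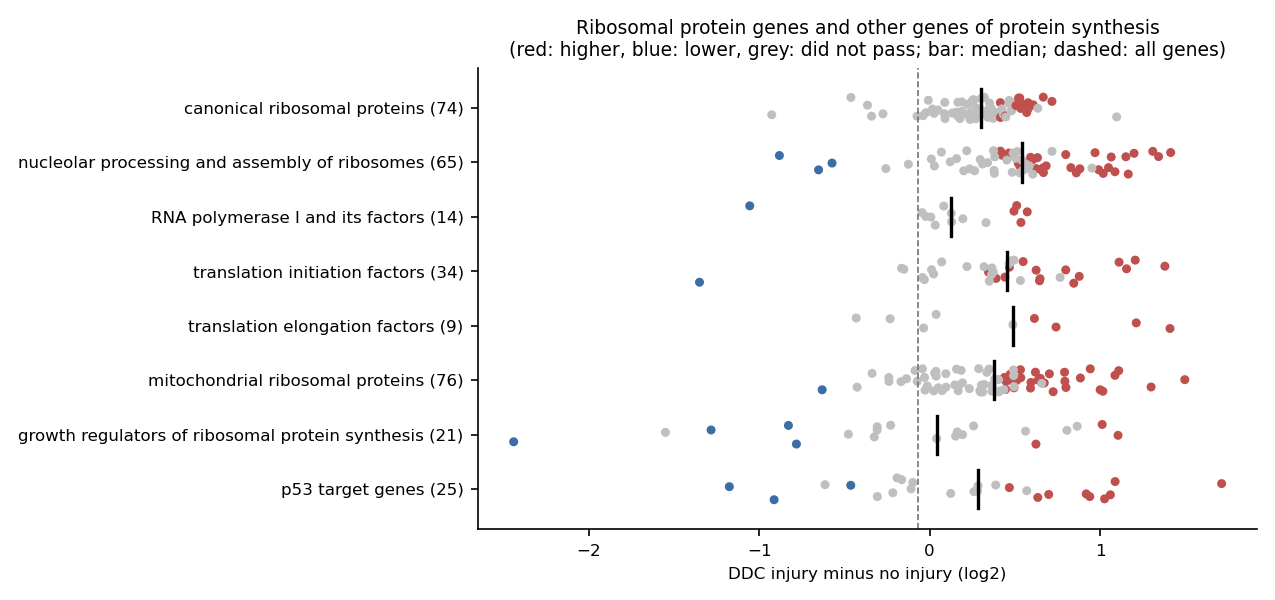
Difference between DDC injury and no injury (log2, horizontal axis) of each tested gene in 8 lists (vertical axis, number tested in brackets), with the median of a list as a bar and that of all genes, -0.07, dashed. The canonical ribosomal proteins have a median of 0.30 and lie close together, while the nucleolar list has a median of 0.54 and reaches 1.42.

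Genes of proliferation moved with these groups. All 22 were well above background on all 6 arrays, 18 rose (17.7% of all genes did) and none fell (limma, 0 lower also at an unadjusted p under 0.05), with a median of 2.78, and their summed level was 129.6 to 172.6 in DDC injury and 37.29 to 37.7 in no injury, in units of the array's 75th percentile. Summed markers of cholangiocytes and progenitors were at 61.19 to 66.27 against 83.43 to 86.69 (of the 9 above background on all 6 arrays, 5 fell), of hepatocytes at 11.12 to 17.75 against 29.88 to 34.16 (of the 5 above background on all 6 arrays, 2 fell), and of macrophages and leukocytes at 2.97 to 6.47 against 7.66 to 7.99 (of the 6 above background on all 6 arrays, 1 fell). These shares stand beside 15.8% of all genes tested called lower. Ttr and Hnf4a made up most of the hepatocyte sum in no injury, and differed by -3.94 and -0.09 (adjusted p = 0.0118 and 0.747 by limma). Cd14 made up most of the macrophage and leukocyte sum and differed by -0.78 without passing (adjusted p = 0.226 by limma). Mesenchyme markers summed to 0.213 to 1.20 against 0.400 to 0.580, endothelium to 0.172 to 0.596 against 0.541 to 0.808, and mesothelium to 22.35 to 27.92 against 22.56 to 24.98. Msln made up nearly all of the mesothelium sum, and without it the sum was 0.0290 to 0.170 against 0.968 to 1.03. Gpm6a made up most of this remainder in no injury and differed by -5.02 without passing (adjusted p = 0.0538 by limma). Lrrn4 went the other way, well above background on 2 DDC injury arrays and on 0 no-injury arrays, and was not tested. Alb, Apoa1, Fga, Wt1 and Upk3b were well above background on all no-injury arrays but on 2, 0, 0, 1 and 0 of the DDC injury arrays. They are thus left out of the counts of genes that fell, while the sums include them. Des, Reln and Erg did not reach a signal well above background on any of the arrays. The part of these cell type and growth differences in the ribosomal protein values was not tested, and fewer cells of a type cannot be told apart from less RNA per cell.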

How the data were processed

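The 6 arrays (design 026655, Cy3) were quantified by the authors with Feature Extraction 11.0.1.1, per the file headers. The processed signal, the median raw signal and its local background are intensity values in the deposited files. The deposited value table holds log2 values that the authors normalized so that the 6 columns share their quantiles. The starting column is not given in the sources used here, and the submitters' processing notes name limma without a version. The arrays' own annotation is of mm9, and probes were named by transcript accession through RefSeq (GRCm38.p6): 27234 had 1 symbol and 12195 none.

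Control and outlier spots were left out and repeated spots averaged. Signals were scaled by the array's 75th percentile before taking log2. The probe with the highest mean stood for a gene, which was tested if well above background on at least 3 arrays with at least 2 values per group. limma 3.58.1 in R 4.3.3 (lmFit, eBayes, two-sided, prior degrees of freedom 1.35) was used, with Benjamini-Hochberg adjustment over all genes tested. The fit was tested on simulated data.

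Alternatives were the scaling, normexp (offset 50), the authors' values, mean of probes, filters, arrays averaged or separate, scan, array weights and leaving out each array; keeping outlier spots and the pair of Rpl32l with Rpl32 were added after seeing the data. The members and lists were chosen with earlier results of these data known. Named genes were all paralogues, the 10 canonical genes with the smallest adjusted p, the 5 largest and the 5 most negative differences, and 4 genes per list by adjusted p. Others named in the lists, and Rps19bp1, Rps23rg1 and probes of single genes, were chosen after their values were seen. A few genes that the rule takes are left out of the text and of the plots by gene. The number of arrays limits the precision.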

Additional observations from a re-analysis of the deposited data

How the results depend on the processing

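Over ribosomal protein genes and paralogues together, 18 were higher and 1 (Rps4l) lower. The number higher was 3 with the array median, 7 with quantile normalization (all 7 among the 18), 10 with normexp and quantile normalization, 8 in the authors' values (7 shared), 6 without a filter on dim probes, 35 with the 6 arrays counted separately, 31 on the second scan day, 39 with array weights and 0 with the no-injury arrays averaged (limma, 6 canonical genes at an unadjusted p under 0.05). Leaving out 1 array gave 0 (without no-injury array 2, which, like averaging, leaves 1 no-injury sample assumed to vary like the DDC injury arrays) to 31 (without DDC injury array 1), and 3 without DDC injury array 3. The number lower was 4 with quantile normalization, 3 with 6 arrays separately, and 2 each in the authors' values, with normexp plus quantile normalization, with a filter on all 6 arrays, on the second scan day and with array weights. Without 1 array it was 1 to 2. Rps4l was lower in each of these. The shares of all genes moved too. At an unadjusted p under 0.05 (limma), 39.2% of canonical genes and 23.5% of all genes were higher in the main fit. The shares were 31.1% and 21.5% with the array median, and 35.1% and 18.0% without the filter. They were 62.2% and 29.0% with array weights, and 25.7% and 20.5% without DDC injury array 3. In these fits 1.35% to 2.70% of canonical genes and 11.5% to 27.9% of all genes were lower.

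The canonical median of 0.30 became 0.54 with the array median, 0.078 with quantile normalization, 0.079 with normexp plus quantile normalization, and 0.084 by the authors' values. The change of Rpl22l1 relative to Rpl22 turned to 0.011 with normexp, 0.065 with normexp plus quantile normalization, 0.072 by the authors' values and 0.46 by the mean of probes. Rpl22l1 turned to -0.017 with quantile normalization, Rpl32l to 0.075 with the array median, and by the mean of probes Rpl17 turned to -0.008. The cause was not tested.

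With the replicate number as a block over 6 arrays, 20 genes were higher, 16 of them shared, and 1 lower, with a canonical median of 0.30. Deviations of same-numbered arrays correlated at 0.12, 0.02 and 0.12, so the arrays share only a number. Of the other values for named genes, 352 kept their direction and side of the threshold, 83 no longer passed and 21 newly passed.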
